A study of Mus musculus with 48 samples.

Results

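In mouse aorta, 9 genes were lower in the knockout than in the wild type of each of 3 models of elastic fibre failure: Clca3a2, Pi15, Slc26a7, Bche, Gabrb2, Npy1r, Ndst3, Alpl and Stxbp6. They were chosen by measured values, as genes with a negative mean difference between knockout (KO) and wild type (WT) and a Benjamini-Hochberg adjusted p under 0.05 in the limma fit of each model. They are 9 of the 22180 genes with a probe set of their own on the arrays. Each is represented by the single-symbol probe set with the highest mean, and 8 of the 9 had only that probe set. The differences between KO and WT are therefore given below as a description. Adjusted p-values printed for them show only how the choice depends on the threshold, the probe set or the arrays used. Tests are otherwise kept to measures that did not choose the genes.

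Elastic fibres are laid down around the smooth muscle cells of large arteries late in gestation and after birth, when elastin is secreted, carried onto a fibrillar scaffold and cross-linked. The 9 genes do not belong to a single pathway. Some encode proteins of ion and anion transport across membranes (Clca3a2, Slc26a7, Gabrb2), some handle or sense transmitters (Bche, Npy1r), and others act on the extracellular matrix or the space around the cell (Pi15, Ndst3, Alpl) or on vesicle fusion (Stxbp6). In arteries, neuropeptide Y released by sympathetic nerves raises vascular tone through the Y1 receptor encoded by Npy1r, and the phosphatase encoded by Alpl removes pyrophosphate, an inhibitor of mineralization.

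The Eln model lacks elastin, the Efemp2 model lacks the matrix protein fibulin-4, and the Lox model lacks the cross-linking enzyme lysyl oxidase. For each model, KO and WT ascending aorta (AA) and descending aorta (DA) were taken before birth at embryonic day 17.5 (E17.5) and after birth on day 1 (P1), which gave 24 groups of 2 arrays and 48 arrays in all. The Eln and Efemp2 mice were C57BL/6 and the Lox mice B6 albino, and each array held RNA pooled from 8 aortas. Nothing in the labels says more about how the pools of a group were drawn, so p-values measure the spread between these arrays. The tissue is bulk aorta, in which fewer cells of a type and less RNA per cell cannot be told apart. All values are deposited log2 signals.

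The labels were borne out where they could be checked: Eln was at 4.23 to 5.56 in the 8 Eln KO arrays against 9.20 to 11.91 in their WT, and Lox was at 6.26 to 8.71 in the 8 Lox KO arrays against 9.55 to 11.48 in their WT. The Efemp2 level was not analysed here. The 8 smooth muscle markers listed for this work, among them Acta2, Myh11 and Tagln, had mean log2 levels of 8.23 to 10.32 on every array. Each model and stage appears to have been normalized in a set of its own, except that the Eln and Efemp2 P1 arrays shared a set, and the Lox P1 arrays had medians of 4.85 to 5.35 without the exact ties at the lowest values seen in the other sets. Tests are therefore made on differences within a model and stage, and counts without the Lox P1 arrays are given where they differ. Among the Eln and Efemp2 P1 arrays, 4 had raised background, all of them WT. They were both Eln WT DA P1 arrays and replicate 2 of Efemp2 WT AA P1 and of Efemp2 WT DA P1. Without these 4 arrays the Eln DA P1 pair drops out, so contrasts that include it are averaged over the remaining pairs. Background was read as the median of probe sets without a gene symbol, 4.345 to 4.37 on these 4 and at most 4.14 on the others. The Lox P1 arrays, scaled apart, read higher on this measure in WT and were not part of that comparison.

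Start-site sequences from RefSeq (GRCm38.p6) were matched by symbol and used for 6 of the 9 genes, with 10 start sites. Below are the 250 bases before the start, 5′ to 3′ on the gene's strand, of 3 genes whose WT level differed between the 2 locations; Gabrb2 is shown at the most upstream of its 3 start sites. Capitals mark a match to a searched motif on either strand.
Gabrb2 promoter, chr11:42420190-42420439 (+ strand): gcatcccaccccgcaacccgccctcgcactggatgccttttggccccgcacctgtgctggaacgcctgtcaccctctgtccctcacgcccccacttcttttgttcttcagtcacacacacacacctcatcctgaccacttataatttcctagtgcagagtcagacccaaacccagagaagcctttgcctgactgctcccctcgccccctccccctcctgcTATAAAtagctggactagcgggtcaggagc
Npy1r promoter, chr8:66697172-66697421 (+ strand): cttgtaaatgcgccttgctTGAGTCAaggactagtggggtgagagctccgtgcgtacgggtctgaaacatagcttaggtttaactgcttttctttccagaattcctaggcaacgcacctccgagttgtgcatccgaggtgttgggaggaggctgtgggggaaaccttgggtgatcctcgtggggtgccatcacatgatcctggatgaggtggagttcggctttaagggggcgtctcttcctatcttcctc
Stxbp6 promoter, chr12:45074484-45074733 (- strand): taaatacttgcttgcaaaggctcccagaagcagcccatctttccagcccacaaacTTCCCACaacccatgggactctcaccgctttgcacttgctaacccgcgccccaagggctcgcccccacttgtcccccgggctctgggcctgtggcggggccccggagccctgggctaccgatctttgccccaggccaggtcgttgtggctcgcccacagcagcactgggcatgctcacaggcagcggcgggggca
In Npy1r (231 to 225 bases before the start) the capitals are the AP-1 motif TGANTCA, which 6.75% of 32841 mouse promoter windows of this length hold. In Gabrb2 (30 to 25 bases before the start) they are the core promoter motif TATAAA, held by 12.4%. In Stxbp6 (195 to 189 bases before the start) they are the RBPJ motif GTGGGAA read on the other strand, held by 5.41%. The TEAD motif GGAATG (12.6%), the E-box CAGCTG (13.0%) and the CArG box (1.47%) were searched as well and were not in the 3 windows. Start site 2 of Gabrb2, not shown, held GGAATG (156 to 151 bases before the start) and GTGGGAA (40 to 34), and its start site 3 held no searched motif. Alpl, also not shown, held CAGCTG at start site 1 (176 to 171) and TATAAA at start site 2 (192 to 187). No searched motif was in Bche or at either start site of Ndst3, and no motif was shared by all 6 genes. These matches describe letters in the window only.

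In the limma fit, 10 of 15337 tested genes (0.0652%) were lower in all 3 models at an adjusted p under 0.05, the 9 named genes and 1 predicted gene. The gene just inside was Stxbp6, whose largest adjusted p over the models was 0.0482, after Npy1r with 0.0384. Just outside were Fgf10, a fibroblast growth factor gene, with 0.0592, Gucy1a1, a soluble guanylate cyclase subunit, with 0.0674, Gria1, a glutamate receptor subunit, with 0.0696, and the flavin monooxygenase genes Fmo2 (0.0754) and Fmo1 (0.0818). The named set is thus the part of a graded series that lies below one threshold. Without the Lox P1 arrays, 2 genes were lower in all 3 models, Clca3a2 (-1.24 in Lox KO) and Alpl (-1.04). Npy1r in Eln KO (adjusted p = 0.053) and Stxbp6 in Eln (0.0587) and Efemp2 KO (0.0821) no longer passed, and the Lox differences of the other 7 ran from -1.16 for Pi15 to -0.19 for Npy1r. Fold differences by model are given below as means over 4 pairs of groups. On the log2 scale their standard errors ran from 0.12 for Alpl to 0.17 for Pi15. These folds still include the all-gene median difference, which was 0.06 in Eln, 0.04 in Efemp2 and -0.09 in Lox KO (log2). Taking it off changed which model had the largest fold for Bche, Npy1r, Alpl and Stxbp6. For these genes the reduced folds are given too.

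The largest differences were those of Clca3a2 (probe set 17410863), a member of the CLCA family of proteins that modulate calcium-activated chloride channels. It was also the brightest of the 9, with WT arrays between 8.65 and 11.46. In Eln AA at P1 its WT arrays read 9.81 and 9.29 and its KO arrays 6.94 and 7.81, the widest gap of the 12 pairs of a KO and a WT group. In Efemp2 DA at P1, the narrowest, WT read 8.84 and 8.91 and KO 8.17 and 8.39. Both KO arrays lay below both WT arrays in 12 of 12 pairs. Averaged over 4 pairs, Clca3a2 was lower by 3.02-fold in Eln KO, 2.06-fold in Efemp2 KO and 2.41-fold in Lox KO. Whether its probes also bind RNA of close CLCA paralogs was not tested.

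Pi15 (probe set 17211305) encodes a secreted peptidase inhibitor of the CAP domain family, and it was the gene with the single widest gap among the 108 differences of 9 genes in 12 pairs. In Eln AA at E17.5 its WT arrays read 9.35 and 9.27 and its KO arrays 6.97 and 6.95. In Lox AA at P1 the gap was far narrower, with 10.29 and 10.14 in WT against 9.58 and 9.54 in KO, and the groups still did not overlap. They overlapped in 2 of 12 pairs, Eln DA at P1 (8.23 and 7.85 in WT, 7.09 and 8.12 in KO) and Efemp2 DA at P1. The mean level was lower by 2.64-fold in Eln KO, 1.76-fold in Efemp2 KO and 2.07-fold in Lox KO.

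Slc26a7 (probe set 17423395), a transporter that exchanges chloride and other anions, had its widest gaps in embryonic tissue. In Efemp2 AA at E17.5 the WT arrays read 6.96 and 7.10 and the KO arrays 5.03 and 5.05, and in DA of the same model and stage 6.45 and 5.96 against 4.88 and 4.99. At P1 the same model gave 3.86 and 4.73 in WT AA against 3.99 and 4.34 in KO AA, so the groups overlapped. By then the WT level itself was low. Slc26a7 exceeded the 95th percentile of 1394 olfactory and vomeronasal receptor genes, a reference for dim genes, on 25 of 48 arrays (14 WT and 11 KO). It was lower by 1.79-fold, 1.98-fold and 1.72-fold in Eln, Efemp2 and Lox KO.

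Gabrb2 (probe set 17248539) encodes a β subunit of the GABA-A receptor, a chloride channel opened by the transmitter GABA. It was the dimmest of the 9 and exceeded the receptor reference on 13 arrays, 12 WT and 1 KO. In Eln AA at E17.5 its WT arrays read 5.86 and 5.56 against 4.42 and 3.88 in KO, and in Efemp2 AA at E17.5 5.44 and 5.55 against 4.16 and 4.01. In Lox AA at P1, WT read 6.22 and 6.24 and KO 4.82 and 5.00. In Eln DA at E17.5 the groups overlapped, with 4.21 and 4.72 in WT against 3.79 and 4.49 in KO. Gabrb2 passed the filter on low values, a mean of at least 4.94 in any group, through 4 of 12 WT groups and none of the 12 KO groups. Its fold differences (1.67 in Eln, 1.56 in Efemp2 and 2.05 in Lox) are therefore set against KO levels near the reference.

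Bche (probe set 17405908) encodes butyrylcholinesterase, an enzyme that hydrolyses choline esters and that stood above the receptor reference on all 48 arrays, as did Clca3a2, Pi15 and Alpl. In Lox AA at P1 its WT arrays read 8.37 and 8.14 and its KO arrays 6.98 and 7.14. In Eln DA at P1 the WT arrays were far apart, 7.58 and 6.57, and both were above the KO values of 5.35 and 6.26. The groups overlapped in Efemp2 DA at E17.5 (6.92 and 6.77 in WT, 6.06 and 6.81 in KO) and in Efemp2 DA at P1. The fold differences were 1.90 in Eln, 1.67 in Efemp2 and 2.00 in Lox KO. With the all-gene median taken off they were 1.98, 1.71 and 1.89, so the largest was in Eln.

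Npy1r (probe set 17501544), the Y1 receptor for neuropeptide Y, was the least even of the 9 across stages. In Eln DA at E17.5 it read 5.97 and 5.63 in WT against 4.90 and 4.96 in KO, but at P1 6.30 and 6.07 against 5.68 and 6.28. In Eln AA at P1 it read 7.70 and 7.40 in WT and 7.25 and 8.03 in KO, the 1 pair in which its KO mean was the higher. In the Lox model the order of the stages was the other way: at E17.5 the AA arrays read 5.18 and 6.08 in WT against 5.59 and 5.22 in KO, and at P1 9.76 and 9.95 against 8.42 and 8.61. In Lox DA at P1, WT read 9.57 and 8.90 and KO 7.73 and 7.26, its widest gap. Groups did not overlap in 7 of 12 pairs, and the gene stood above the receptor reference on 47 arrays. The mean fold differences were 1.48 in Eln, 1.81 in Efemp2 and 1.82 in Lox KO. With the all-gene median taken off they were 1.53, 1.85 and 1.71. Without the Lox P1 arrays the Lox difference was -0.19 on the log2 scale.

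Ndst3 (probe set 17410067) encodes one of the enzymes that remove acetyl groups from heparan sulfate and add sulfate in their place. Its values were among the most even, with fold differences of 1.75, 1.87 and 1.70 in Eln, Efemp2 and Lox KO. In Efemp2 AA at E17.5 the WT arrays read 6.10 and 5.91 and the KO arrays 4.85 and 4.53. In Eln DA at E17.5 they read 5.95 and 5.92 against 4.84 and 4.56. Ndst3 exceeded the receptor reference on 37 arrays, 19 WT and 18 KO.

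Alpl (probe set 17548317) encodes tissue-nonspecific alkaline phosphatase, and its gaps were wider in AA than in DA. In Eln AA at P1 the WT arrays read 7.51 and 6.94 and the KO arrays 6.13 and 6.16, while in Eln DA at P1 WT read 6.64 and 6.61 and KO 6.55 and 6.77. In Efemp2 AA at P1 the values were 6.87 and 6.68 against 5.62 and 5.33, and in DA 6.57 and 5.90 against 6.16 and 5.65. Averaged over location and stage, Alpl was lower by 1.40-fold in Eln, 1.58-fold in Efemp2 and 1.69-fold in Lox KO. With the all-gene median taken off these were 1.45, 1.62 and 1.59. In Eln DA the groups overlapped at both stages. A dimmer Alpl probe set, 17431720, with arrays between 3.93 and 5.94, gave differences of -0.12, -0.33 and -0.30 on the log2 scale in Eln, Efemp2 and Lox KO (limma, adjusted p = 0.676, 0.0996 and 0.182). With the 2 probe sets averaged, the Eln difference was -0.30 (0.0857), so the place of Alpl among the 9 depends on the probe set used.

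Stxbp6 (probe set 17280897) encodes amisyn, a protein that binds SNAREs, the proteins that drive membrane fusion. It had the smallest differences, 1.38-fold, 1.35-fold and 1.40-fold in Eln, Efemp2 and Lox KO. With the all-gene median taken off these were 1.43, 1.38 and 1.31, so Lox had the smallest. In Eln AA at E17.5 its WT arrays read 6.81 and 7.05 and its KO arrays 6.11 and 5.75. In Lox DA at E17.5 the groups overlapped, 5.74 and 5.67 against 5.63 and 5.74. It lay closest to the threshold. Leaving out a single array took its Efemp2 difference past an adjusted p of 0.05 in 39 of 48 cases (limma, adjusted p 0.0502 to 0.174), its Lox difference in 16 and its Eln difference in 8. Leaving out a single Eln array did the same for the Npy1r difference in Eln KO in 10 cases (0.0647 to 0.121), and leaving out Eln KO AA E17.5 replicate 1 for Alpl in Eln KO (-0.41, 0.0554).

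**Figure D1:**
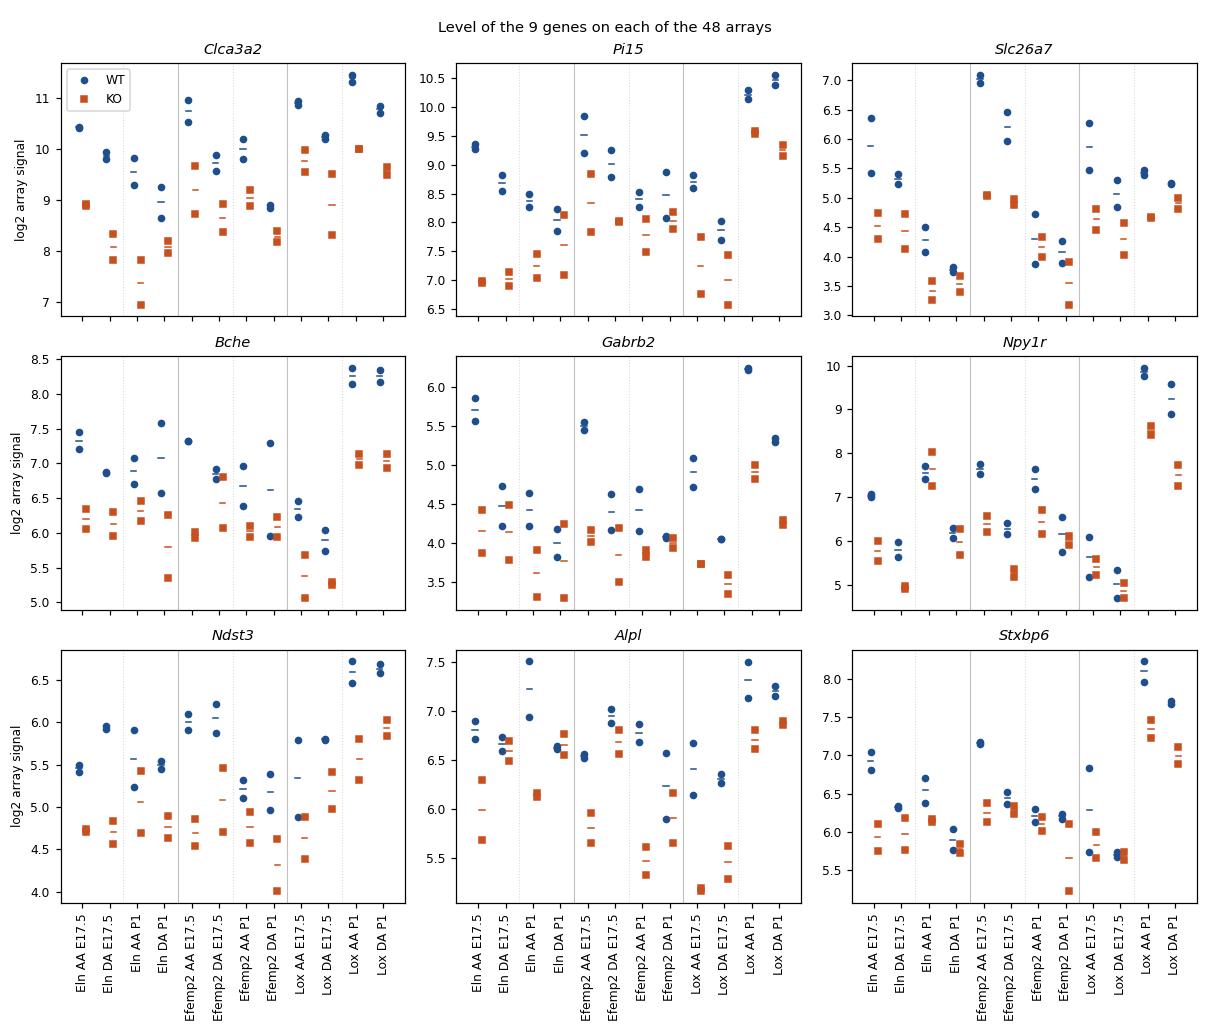
Deposited log2 signal (vertical axis, its own range in each panel) of each of the 9 genes on all 48 arrays, by model, location and stage, with WT arrays as circles, KO arrays as squares and short lines at the group means. Clca3a2 lies between 6.94 and 11.46 and Gabrb2 between 3.30 and 6.24.

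Set side by side, 106 of the 108 differences between a KO group and its WT group were below 0. Each difference was then reduced by the median difference of all tested genes in its pair, since those medians ran from -0.20 in Lox AA at P1 to 0.27 in Eln DA at P1. On that scale 107 were below 0, with a median of -0.86 and a range from -2.30 (Pi15 in Eln AA at E17.5) to 0.07 (Npy1r in Eln AA at P1). All genes but Npy1r were below in 12 of 12 pairs, as were 67 tested genes in all (0.437%). Both KO arrays lay below both WT arrays in 84 of the 108 comparisons, against 22.6% over all tested genes and pairs. These shares follow from how the genes were chosen.

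The pairs were not equal. All 9 genes had groups without overlap in Eln AA at E17.5 and in Efemp2 AA at E17.5, where 26.8% and 19.1% of tested genes had the same, and in Lox AA and DA at P1, where 54.6% and 44.7% of tested genes did. The fewest were in Efemp2 DA at P1 (3 of 9, against 12% of tested genes) and Eln DA at P1 (4 of 9, against 13.8%). Those pairs hold WT arrays of raised background, as does Efemp2 AA at P1, where 7 of 9 genes did not overlap (13.6% of tested genes).

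**Figure D2:**
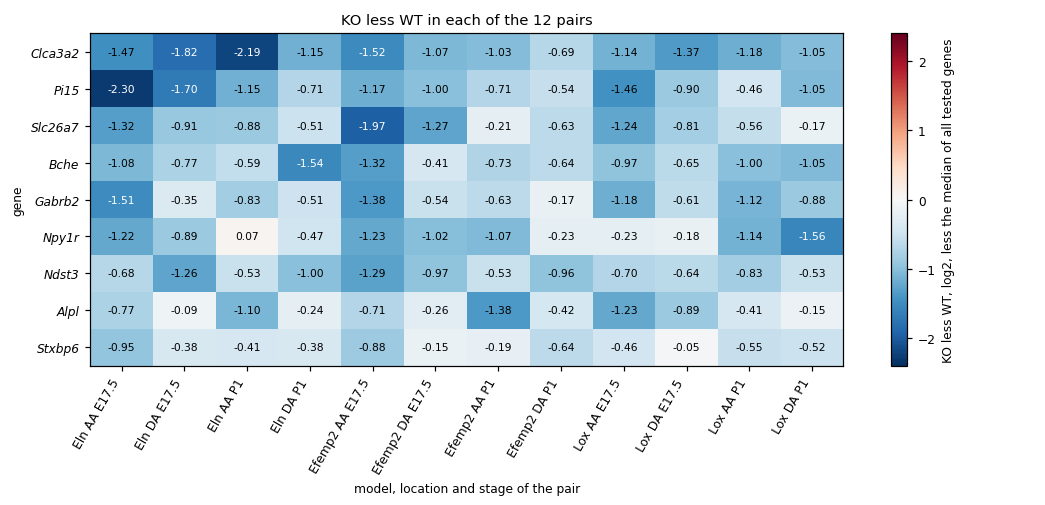
Difference between KO and WT group means in log2 units, less the median difference of all tested genes, for each of the 9 genes in each of the 12 pairs. Values run from -2.30 to 0.07 and are below 0 in 107 of 108 cases.

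The location of each gene in WT aorta did not enter the choice of genes, apart from sharing the estimate of spread and the filter on low values. Gabrb2 reached the filter's mean of 4.94 in WT AA of Eln (5.71) and Efemp2 (5.49) at E17.5. In Lox at P1 it did so in WT AA (6.23) and DA (5.32), and in no other group. It was thus tested mainly through its WT AA levels, so its location call is not independent of the filter. Its other WT DA groups lay below 4.94, which limits how its gap can be read. In WT, 5 of the 9 were lower in DA than in AA and none was higher, where 3.96% of all tested genes were lower and 4.64% higher (limma, mean of 6 model and stage pairs). Npy1r had the widest gap, with a DA level 2.11-fold below AA (log2 difference -1.08 ± 0.13, SE; adjusted p = 3.59e-07). Gabrb2 was 1.76-fold lower (-0.81 ± 0.11, adjusted p = 7.24e-06) and Clca3a2 1.70-fold lower (-0.76 ± 0.13, adjusted p = 1.03e-04). For both, the DA arrays lay below the AA arrays in 6 of 6 pairs, where 19.7% of genes and pairs had the same. Slc26a7 was 1.43-fold lower (-0.52 ± 0.12, adjusted p = 0.00677) and Stxbp6 1.41-fold lower (-0.49 ± 0.10, adjusted p = 0.00142), each without overlap in 5 of 6 pairs.

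The arrays show how wide these gaps were. In the Efemp2 model at E17.5, WT Npy1r read 7.75 and 7.53 in AA and 6.40 and 6.16 in DA, and WT Clca3a2 read 10.96 and 10.52 in AA and 9.88 and 9.56 in DA. WT Gabrb2 in the Eln model at E17.5 read 5.86 and 5.56 in AA and 4.21 and 4.72 in DA. The groups did not overlap in any of these. The other 4 genes did not pass: Pi15 had -0.33 ± 0.14 (adjusted p = 0.151), Bche -0.21 (0.381), Alpl -0.18 ± 0.09 (0.261) and Ndst3 0.15 ± 0.12 (0.486). Without the 4 arrays of raised background, which leaves out the Eln P1 pair, Slc26a7 did not pass either (-0.39).

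At E17.5 the same 5 genes were lower in WT DA (1.34% of tested genes were): Npy1r by -1.07, Gabrb2 by -1.06, Clca3a2 by -0.75, Slc26a7 by -0.73 and Stxbp6 by -0.63, with adjusted p from 5.77e-05 to 0.0111. At P1, 4 genes were lower (4.72% of tested genes were), Npy1r (-1.08), Clca3a2 (-0.78), Gabrb2 (-0.56) and Alpl (-0.42, adjusted p = 0.0438), while Slc26a7 (-0.30, 0.285) and Stxbp6 (-0.35, 0.118) did not pass. The change of these gaps between stages was not tested. In KO aorta Npy1r (-0.93, adjusted p = 4.25e-06) and Clca3a2 (-0.46, 0.0209) were again lower in DA (1.98% of tested genes were). Alpl was higher in KO DA than in KO AA (0.48, 8.01e-04), as were 5.05% of tested genes.

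**Figure D3:**
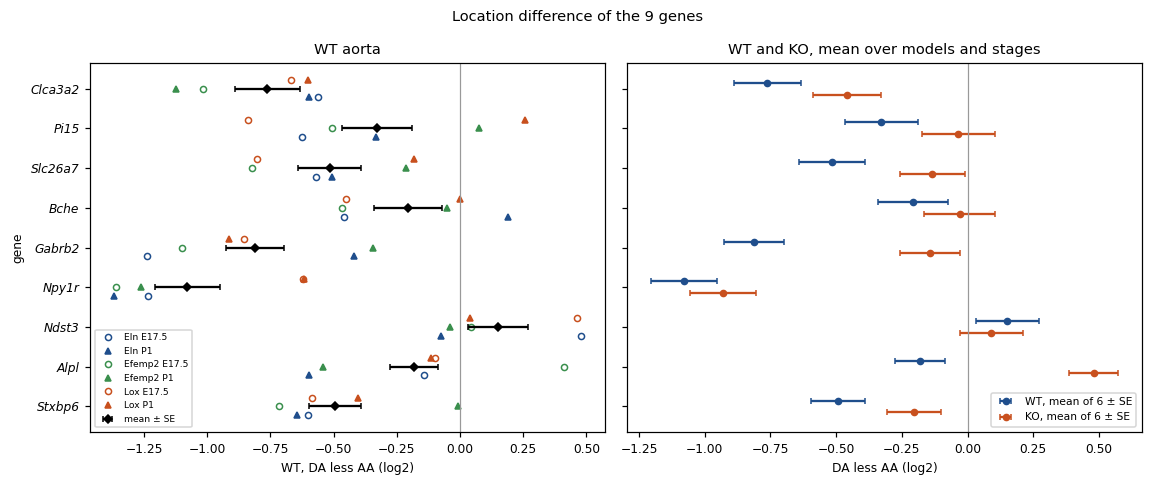
Log2 difference between DA and AA for each of the 9 genes: on the left each of the 6 WT model and stage pairs with their mean and standard error, on the right the WT and KO means with their standard errors. WT means run from -1.08 for Npy1r to 0.15 for Ndst3, and Alpl lies at -0.18 in WT and 0.48 in KO.

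In 44 of the 54 sets made by 9 genes, 3 models and 2 stages, both WT groups stood above both KO groups, against 19.8% over all tested genes. WT AA was the highest of the 4 groups in 44 sets, against 24.6%. The place of WT above KO follows from how the genes were chosen. That choice also raises how often WT AA is highest, so 24.6% is not a like comparison for location. The commonest order was WT AA, WT DA, KO AA, KO DA (21 sets), then WT AA, WT DA, KO DA, KO AA (15 sets). In 7 sets KO AA stood between WT AA and WT DA.

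Whether the difference between KO and WT was the same in both locations is a separate contrast. Alpl passed it: the mean log2 difference was -0.96 in AA and -0.30 in DA, a difference of 0.66 ± 0.13 (limma, adjusted p = 0.0192). It was the only one of the 9 to pass, against 0.215% of all tested genes. By model the difference for Alpl was 0.93 ± 0.23 in Eln (adjusted p = 0.0247, where 5.24% of tested genes passed), 0.72 in Efemp2 (0.524) and 0.33 in Lox (1), and 0 tested genes passed in Efemp2 or in Lox. The mean difference for Alpl did not pass with loess scaling over all arrays (limma, 0.53, adjusted p = 0.0619), without the Lox P1 arrays (0.68, 0.12) or with its 2 probe sets averaged (0.40, 0.127). Nor did it pass without the 4 arrays of raised background (0.56), where its Eln part rests on E17.5 alone. The dimmer probe set alone gave 0.14 (0.655).

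Gabrb2 had a difference of about the same size (0.67 ± 0.16, from -1.14 in AA to -0.47 in DA) that did not pass (adjusted p = 0.074). With loess scaling Gabrb2 passed (0.71, 0.0488) and Alpl did not. When single arrays were left out, the Gabrb2 value ran from 0.59 to 0.75. Only 1 of its 24 KO arrays exceeded the receptor reference, while its WT level is higher in AA. Gabrb2 reached the filter on low values through WT groups only, mainly in AA, so this contrast is not independent of the filter. Over the 9 genes the median was 0.29, against 0.07 for all tested genes. Although 8 of 9 had a smaller gap in DA than in AA, 7 of those 8 did not pass. The share of all tested genes on that side was not counted, so the 8 of 9 is not read as a trait of the set.

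Between stages, 1 of the 9 genes passed, against 0.665% of tested genes. Slc26a7 had a mean log2 difference between KO and WT of -1.26 at E17.5 and -0.48 at P1, a change of 0.78 ± 0.18 (adjusted p = 0.0307). Its WT level at P1 was low, at 4.3 in AA and 3.8 in DA of Eln and 4.3 and 4.1 in Efemp2. In Lox it was 5.4 and 5.2. A low WT level limits how wide a gap can be read, and its part in the change of Slc26a7 was not tested. By model the change of Slc26a7 was 1.30 ± 0.31 in Efemp2 (from -1.63 to -0.34, adjusted p = 0.0361, where 1.15% of tested genes passed in this direction), 0.57 in Eln and 0.46 in Lox. Leaving out single arrays ended the mean call in 11 of 48 cases, with values of 0.70 to 0.78 and adjusted p of 0.0506 to 0.0623. In Eln these were WT AA E17.5 replicate 2, WT DA E17.5 replicate 1, KO AA E17.5 replicate 1 and KO DA E17.5 replicate 2, and in Efemp2 WT AA E17.5 replicate 2 and WT DA P1 replicate 2. In Lox they were WT AA P1 replicate 2, WT DA P1 replicate 2, KO AA E17.5 replicate 2, KO DA E17.5 replicate 2 and KO DA P1 replicate 1. The change also did not pass without the 4 arrays of raised background (0.79), where its Eln part rests on AA alone. Pi15 had a change of 0.67 ± 0.20 that did not pass (0.107). Without the Lox P1 arrays this contrast loses the Lox model and is the mean of Eln and Efemp2 alone. In that narrower contrast Slc26a7 (0.94, 0.0215), Pi15 (0.89, 0.0418) and Npy1r (0.79, 0.0365) passed. For Npy1r it leaves out the model that changed the opposite way (-1.35 in Lox).

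The stage differences of Npy1r ran in opposite directions in different models. Its mean difference between KO and WT went from -1.07 at E17.5 to -0.06 at P1 in Eln and from -1.14 to -0.56 in Efemp2, but from -0.19 to -1.54 in Lox. The changes were 1.01 ± 0.31 in Eln (adjusted p = 0.107), 0.58 in Efemp2 (0.344) and -1.35 ± 0.31 in Lox (0.0752), none of which passed alone. The change in Eln less that in Lox was 2.36 ± 0.44 (adjusted p = 0.007, where 1.78% of tested genes passed) and that in Efemp2 less that in Lox 1.93 ± 0.44 (0.0282, where 1.98% did). The median of all tested genes was 0.34 and 0.30 in these contrasts, which were singled out after their values were seen. Both rest on the Lox P1 arrays and cannot be computed without them.

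**Figure D4:**
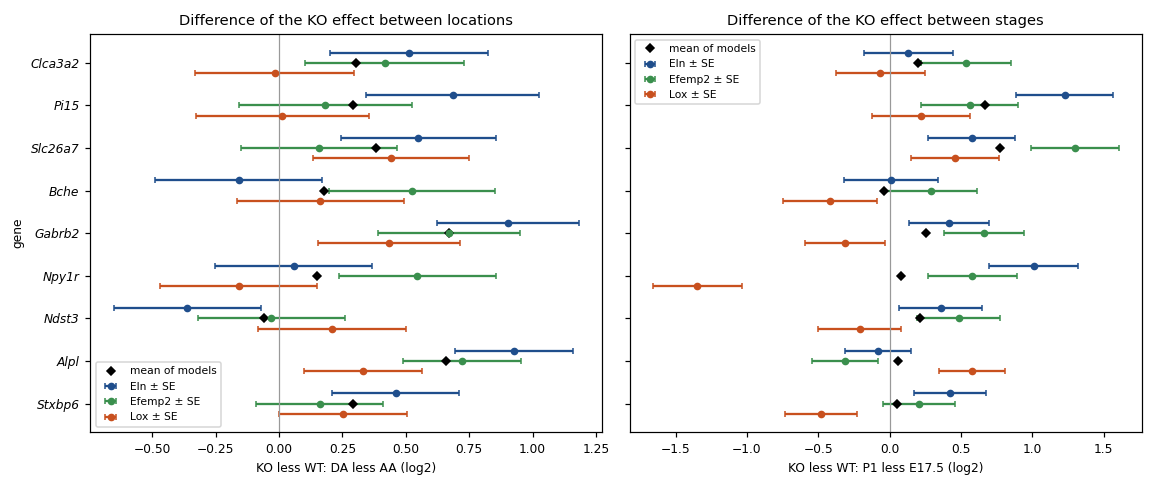
Change of the log2 difference between KO and WT, on the left from AA to DA and on the right from E17.5 to P1, for each of the 9 genes. Coloured points are the values of each model with their standard errors and black diamonds the means of the models: Alpl lies at 0.66 on the left, Slc26a7 at 0.78 on the right, and on the right Npy1r lies at 1.01 in Eln and -1.35 in Lox.

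The WT levels at the stages can only be described, because the stages were normalized apart. Less the median of all genes, WT Slc26a7 was lower at P1 than at E17.5 in all 6 model and location sets, by -1.43 to -2.54. WT Clca3a2 was lower in all 6 as well, by -0.54 to -1.16. Npy1r was higher at P1 by 2.68 in Lox AA and 2.52 in Lox DA, against -0.03 to 0.50 in the other 4 sets. In the Lox sets the median of all genes was itself higher at P1 by 1.54 and 1.70. Before it was subtracted, Clca3a2 was higher at P1 in Lox AA (0.48) and Lox DA (0.54), and Slc26a7 was higher in Lox DA (0.17). The lower values of these genes in those Lox sets therefore depend on the subtraction.

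Relatives of the 9 genes were measured from a fixed list of 115 genes, of which 100 had a probe set and 65 were tested. In Eln KO 7 rose and 2 fell, in Efemp2 KO 3 rose and 1 fell, and in Lox KO 1 rose and 3 fell. Over all tested genes 2.74%, 3.14% and 0.561% rose and 0.541%, 0.665% and 1% fell. Without the Lox P1 arrays none of these relatives passed in Lox KO.

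Among the channels and transporters, Clca3a1, a close paralog of Clca3a2, fell in Eln KO (-0.53, adjusted p = 0.0105), and the other 5 CLCA genes were below the filter. None of the 5 tested SLC26 transporters passed in any model. Of 7 tested GABA receptor genes, the α subunit gene Gabra3 fell in Eln (-0.67, 0.00233) and Efemp2 KO (-0.51, 0.0252). Gabre (-0.60, 0.0155) and Gabrq (-0.72, 0.0425), which encode the ε and θ subunits, fell in Lox KO. Among genes of transmitters, none of 7 tested genes of acetylcholine handling and reception passed. Ache, the gene of acetylcholinesterase, had 0.11, 0.28 and 0.10 in Eln, Efemp2 and Lox KO. Npy, the ligand of the Y1 receptor, had 0.78, 0.71 and 0.02 (adjusted p = 0.24, 0.288 and 0.983).

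Genes of heparan sulfate synthesis included several that rose. Ext1, which encodes a polymerase subunit of the chain, rose in Eln (0.38, 0.0335) and Efemp2 KO (0.46, 0.00675). Ext2, its partner, rose in Eln KO (0.50, 0.00358), as did Sulf2, which encodes a sulfatase acting on the finished chain (0.61, 7.15e-04). The 6-O-sulfotransferase genes Hs6st1 (0.56, 0.0173) and Hs6st2 (0.56, 0.00988) rose in Efemp2 KO, and Hs6st2 in Lox KO (0.49, 0.0479). Ndst2, the tested relative nearest in function to Ndst3, had 0.21, 0.29 and 0.00 and passed in no model.

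In the remaining lists few genes passed. Of the CAP domain family, Pi16 (0.67, 0.0247) and Crispld2 (0.49, 0.00323) rose in Eln KO. Of the mineralization genes, Mgp, an inhibitor of calcification, rose in Eln KO (0.27, 0.0379) and Slc20a2, a phosphate transporter, fell in Lox KO (-0.48, 0.00941). Of 14 tested SNARE genes, the syntaxin gene Stx1a rose in Eln KO (0.87, 0.00101).

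The genes whose WT levels ran closest to each member were found by Pearson's r over the 24 WT arrays, after centring within model and stage. The arrays share locations, so r partly reflects DA against AA, and it is given as a description. Clca3a2 was closest to Myocd, a coactivator of smooth muscle genes (r = 0.912), and Alcam, an adhesion molecule (0.897). Npy1r was closest to Efna5, an ephrin (0.939), and Fam20a (0.925), and Fam20a was also next to Slc26a7 (0.821) after Vcan, a large matrix proteoglycan (0.822). Gabrb2 was closest to Arap2 (0.887) and Osr2 (0.874), Stxbp6 to Dlx5 (0.878) and Ghr (0.855), and Alpl to Atp2b4 (0.85) and Map6 (0.849). Values were lower for Pi15 with Rin2 (0.805) and Ephx2 (0.781), Bche with Stambpl1 (0.78) and Cdc27 (0.776), and Ndst3 with Tmem181c-ps (0.782) and Fank1 (0.767).

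Of these 17 genes, 1 fell in Eln KO (Arap2, -0.51, adjusted p = 0.0358) and 2 in Lox KO (Arap2, -0.65, 0.0105, and Osr2, -0.72, 0.00477), while Rin2, Vcan and Map6 rose in Eln KO. Myocd had 0.20, -0.29 and -0.24 in Eln, Efemp2 and Lox KO and passed in none. Among the 9 genes themselves, the 36 values of r ran from -0.457 to 0.858 (Clca3a2 with Npy1r) with a median of 0.45, and 14 were above 0.5.

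Markers of the cell types in the aorta and around it were read beside these values. Of 8 smooth muscle markers none fell in any model and Smtn rose in Eln KO (0.60, adjusted p = 0.00821); their mean level in Eln was 8.47 to 9.38 in WT and 9.16 to 9.83 in KO. Of 7 fibroblast and adventitia markers, Dpt (-0.73), Lum (-0.48) and Dcn (-0.39) fell in Eln KO, Pi16 rose there, and Dpt fell in Efemp2 KO (-0.58). Of 8 endothelial markers, Emcn fell in Eln (-1.04), and Cldn5, Cdh5 and Emcn in Efemp2 KO. Of 6 brown fat markers, Pparg and Fabp4 fell in Eln and Cidea in Lox KO, and the median difference of the list was -0.49, -0.48 and -0.65 in Eln, Efemp2 and Lox KO. Its mean level in Eln ran from 5.39 to 9.21 over WT arrays and from 5.26 to 7.67 over KO arrays. Of 6 macrophage markers 4 rose in Efemp2 KO, where the mean level was 7.51 to 8.25 against 6.34 to 7.38 in WT, and 1 in Lox KO. The part of fat, fibroblasts, endothelium or macrophages in the lower level of the 9 genes was not tested.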

How the data were processed

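The authors hybridised RNA from pools of 8 aortas, amplified with a NuGEN Ovation Pico kit per the labels' protocols, to 48 Affymetrix arrays. The authors deposited log2 signals made by RMA in Affymetrix Expression Console, per the submitters' processing notes, and the versions and the gene build are not given in the sources used here. Of 41345 probe sets, 23521 had a single symbol, 1814 several and 16010 none, and the probe set with the highest mean stood for each of 22180 genes. Of the single-symbol probe sets, 23328 matched RefSeq, whose symbols differed in 0. Genes with a mean of at least 4.94 in 1 of 24 groups were tested (15337). In limma 3.58.1 (R 4.3.3), 1 mean per group was fitted to 48 arrays (24 residual degrees of freedom), followed by eBayes and Benjamini-Hochberg adjustment over all tested genes. All contrasts share 1 estimate of spread. Self-tests on simulated data were run. The 9 genes, the gene lists and the contrasts were chosen with earlier results of these data known. Named relatives are up to 3 per list past the threshold by largest difference, and genes like a member are the 2 with the highest r; Ext1, Ext2, Ache, Npy and Ndst2 were named in addition, after their values were seen. The number of arrays limits the precision. Marker lists for other cell types were also read: pericyte (Rgs5 and Cspg4 rose in Eln KO), lymphatic endothelium (Pdpn rose in Efemp2 KO), neuron and Schwann cell (Stmn2 and Prph rose in Eln KO), cartilage (Acan, Chad and Hapln1 rose in Eln KO, Acan in Efemp2 KO), and mesothelium, epithelium and heart muscle (none passed in any model). The start-site sequences of 3 genes are not used here.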

Additional observations from a re-analysis of the deposited data

Results flagged for a closer look

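Differences between groups were found for 3 of the 9 genes. For Alpl, the difference between KO and WT was smaller in DA than in AA by 0.66 on the log2 scale over all models (limma, adjusted p = 0.0192) and by 0.93 in Eln (0.0247). The Eln value did not pass when any 1 of 5 Eln arrays was left out (0.78 to 0.92, adjusted p 0.0564 to 0.0891), namely WT AA E17.5 replicate 2, WT DA E17.5 replicate 2, KO AA E17.5 replicate 1, KO DA E17.5 replicate 1 and KO AA P1 replicate 1. It also did not pass with the covariate for array background (limma, 0.79, 0.148) or with loess (0.60, 0.14). Without the 4 arrays of raised background no Eln WT DA P1 array is left. The Eln value is then that of E17.5 alone (0.74), which did not pass.

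For Slc26a7, the difference between KO and WT was smaller at P1 than at E17.5 by 0.78 over all models (adjusted p = 0.0307) and by 1.30 in Efemp2 (0.0361). With the covariate for array background the mean value did not pass (0.78, 0.141). The Efemp2 value did not pass when any 1 of 9 Efemp2 arrays was left out (1.11 to 1.38, adjusted p 0.0513 to 0.11): both replicates of KO AA E17.5 and of KO AA P1, WT AA E17.5 replicate 2, WT DA E17.5 replicate 1, WT DA P1 replicate 2, KO DA E17.5 replicate 1 and KO DA P1 replicate 2. It also did not pass without the filter on low values (0.0519), with loess (1.36, 0.0976) or without the Lox P1 arrays (0.0775).

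For Npy1r, the stage change of the difference between KO and WT was larger in Eln than in Lox by 2.36 (adjusted p = 0.007) and larger in Efemp2 than in Lox by 1.93 (0.0282). The first ran from 1.88 to 2.71 in 55 other settings, 48 of which leave out a single array. All 55 keep Lox P1 arrays, so they cannot show how far it depends on that set. Both contrasts were singled out after their values were seen. The second did not pass with loess (1.43, 0.174) or when any 1 of 9 arrays was left out (1.70 to 1.88, adjusted p 0.0503 to 0.0789). In Efemp2 these were WT DA P1 replicate 2 and KO DA E17.5 replicate 1. In Lox they were replicate 1 of WT AA E17.5, WT DA P1, KO AA E17.5, KO DA E17.5 and KO AA P1, and replicate 2 of WT AA P1 and KO DA P1. Causes were not tested.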

How the results depend on the processing

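The count of genes lower in WT DA was 5 in the settings run except 4 without the 4 arrays of raised background. The count for the difference by location, 1, became 0 without those 4 arrays, 0 with probe sets averaged and 0 without the Lox P1 arrays (an alternative added after seeing the data), and 1 to 2 when single arrays were left out; with loess it was 1, Gabrb2 in place of Alpl. The count for the difference by stage, 1, became 0 without the 4 arrays, 0 with the background of each array as a covariate, 3 without the Lox P1 arrays and 0 to 2 when single arrays were left out. The 9 relatives past the threshold in Eln became 3 without the 4 arrays and 5 with the covariate. The 4 in Efemp2 became 2 with the covariate and 2 to 7 when single arrays were left out. The 4 in Lox became 2 without the filter, 2 with loess, 0 without the Lox P1 arrays and 1 to 5 when single arrays were left out. The 10 genes lower in all 3 models became 19 with the covariate, 18 without the 4 arrays, 16 with loess and 2 without the Lox P1 arrays. Without the filter there were 8. The higher counts did not hold all of the named genes: 8 of the 9 were among the 19 and among the 16. Stxbp6 was missing from each of the higher counts. Its limma adjusted p was 0.0621 in Eln and 0.0628 in Efemp2 with the covariate, and 0.0693 in Lox with loess. Without the filter it was 0.0637 in Efemp2 and 0.058 in Lox. Other settings moved these counts by at most 1.5 times. Without the Lox P1 arrays the difference by stage is the mean of Eln and Efemp2 alone. Without the 4 arrays of raised background the Eln DA P1 pair is lost, so contrasts that include Eln rest on fewer pairs. The covariate was the median of the receptor genes on each array. Causes were not tested. Replicate numbers gave no steady sign of pairing. Deviations of the same number correlated above 0.1 in 3 of 12 KO and WT pairs (-0.233 to 0.203) and in 2 of 6 DA and AA pairs of WT (-0.146 to 0.294). Those 2 were both of Efemp2, with 0.23 at E17.5 and 0.294 at P1. DA and AA of KO were not compared, so this check cannot tell whether they came from shared pools. With the replicate block, 5 genes were lower in WT DA, 1 passed by location, 1 by stage, 9, 5 and 4 relatives passed in Eln, Efemp2 and Lox, and 8 genes were lower in all 3 models; Npy1r in Eln (0.057) and Stxbp6 in Efemp2 (0.0663) and Lox (0.0606) did not pass. Each group has 2 arrays, and levels of Gabrb2 and Slc26a7 near the reference limit their differences.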
